A study of Rana pirica with 14 samples.

Results

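The genes pdap1.L, bcorl1.L and rhno1.S, labelled as marking exposure to larval salamanders, were followed in the tail of Rana pirica tadpoles over the treatments of a predator experiment. Each was read by 1 probe set chosen for it, 3 of the 15611 probe sets on a Xenopus laevis genome array. Xenopus laevis carries most genes in a copy on a long chromosome (.L) and a copy on a short one (.S). The gene names follow the platform annotation. The study itself listed the pdap1.L probe set only as an expressed sequence tag and called that gene unknown. It gave the bcorl1.L probe set the symbol bcor, with the title BCL6 co-repressor-like 1. It also counted the rhno1.S gene as unknown, although it gave that probe set the symbol rhno1. The annotation assigns 2 more probe sets to the same genes, both to pdap1, and none further to bcorl1 or rhno1. All 3 were chosen by how strongly their values differed between the treatment groups on these same 14 arrays, so their levels are given as a description, without a test.

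PDAP1, the PDGFA-associated protein 1, is a small phosphoprotein that was found in rat as a partner of platelet-derived growth factor A and as a substrate of casein kinase 2. Platelet-derived growth factors act through receptor tyrosine kinases on mesenchymal cells, among them the fibroblasts of connective tissue. BCORL1 is a transcriptional corepressor related to BCOR. In human cells it binds the corepressor CtBP and class II histone deacetylases, and it joins Polycomb complexes that contain PCGF1. RHNO1 binds, in human cells, the RAD9-HUS1-RAD1 clamp, a ring loaded onto damaged DNA, and takes part in activating the checkpoint kinase ATR.

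Tadpoles were 10 days old at the start and tail tissue was taken on day 8. In Salam they were kept with 3 larval salamanders (Hynobius retardatus) per aquarium for 8 days. In Drago they were kept with 1 caged larva of the dragonfly Aeshna nigroflava per aquarium for 8 days. By the study's account, salamanders bit some tadpoles and killed a few, whereas the dragonfly larvae harmed none. The kind of predator therefore cannot be told apart from predator number, injury or loss of tadpoles. In −Salam and −Drago the same predators were present for 4 days, followed by 4 days without them, and in Cont there was no predator. Each predator group has 3 arrays and Cont has 2. By the study's account, another Cont array was left out because its hybridization failed. By the methods, tissue from 40 tadpoles was combined in each treatment group, 10 from every one of 4 aquaria, whereas the labels call the arrays biological replicates. Whether the arrays of a group share 1 RNA pool is therefore open to doubt, and since n counts arrays, an SD or p-value refers to their spread alone. The values are log2 MAS5 signals, each probe set being centred on its own median across the 14 arrays. A value of 0 is therefore the middle array of that probe set, a difference of 1 is a doubling, and the signal level itself is not kept. Genes cannot be compared in level, markers of the labelled tissue cannot be checked for presence, and fewer cells of a type cannot be told apart from less RNA per cell. The probes were designed for Xenopus laevis, and which Rana pirica transcripts they read was not tested.

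pdap1.L was high on all 3 Salam arrays and near the middle on every other array. Its values were 3.31, 3.60 and 3.52 in Salam. They were -0.61, -0.45 and -0.49 in Drago. They were 0.15, -0.16 and 0.63 in −Salam. The Salam arrays thus stood apart from the arrays of both the other predator and the removal of the salamander. Values were 0.56, -0.75 and -0.15 in −Drago, and -0.21 and 0.44 in Cont. The highest array outside Salam was a −Salam array at 0.63, and the lowest Salam array lay 2.68 above it. Over all 15491 probe sets tested, 0.258% had all 3 Salam arrays above the other 11. The means ± SD were 3.48 ± 0.154 for Salam, 0.205 ± 0.399 for −Salam, -0.113 ± 0.655 for −Drago, -0.515 ± 0.0815 for Drago and 0.119 ± 0.459 for Cont, with n = 2 arrays in Cont and n = 3 in the others. The order was thus Salam, −Salam, Cont, −Drago and Drago, and each neighbouring pair below Salam overlapped. The Drago arrays nevertheless lay below all −Salam and both Cont arrays.

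**Figure D1:**
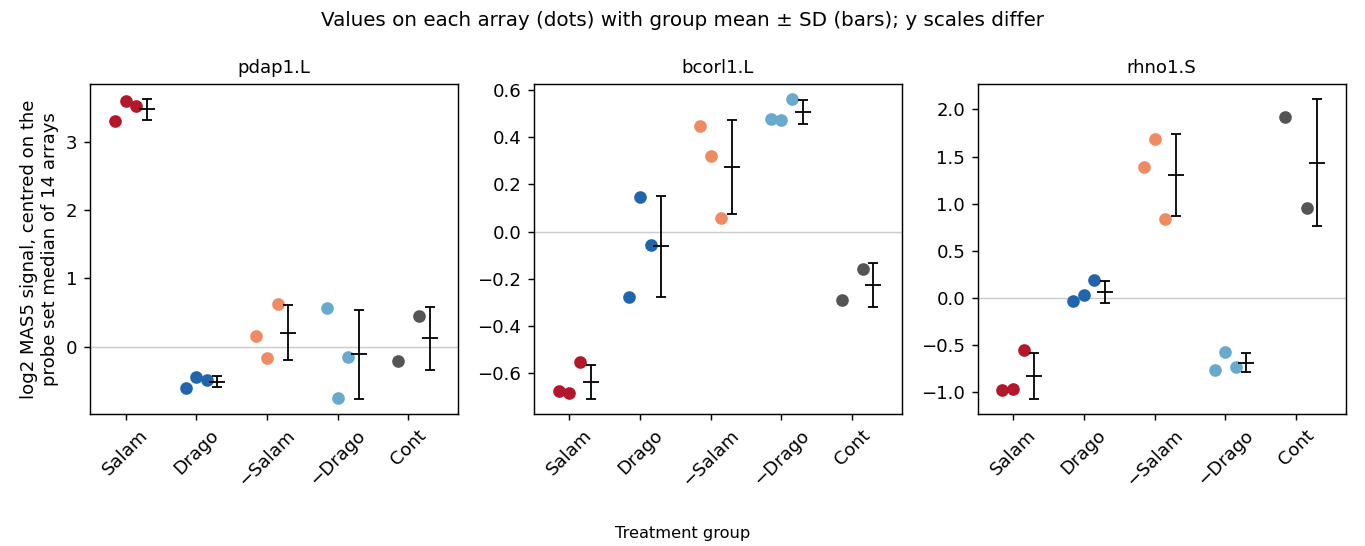
Values of pdap1.L, bcorl1.L and rhno1.S on the 14 arrays, as log2 MAS5 signal centred on the probe set median, by treatment group. Dots are arrays and bars are group means ± SD (n = 3, Cont n = 2). pdap1.L lies between 3.31 and 3.60 in Salam and at most at 0.63 elsewhere, bcorl1.L is lowest in Salam, and rhno1.S is low in both Salam and −Drago.

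Set against Cont, pdap1.L was higher in Salam by 3.36 on the log2 scale (limma SE 0.57), which is 10.3 fold. With the same SE of 0.57, Drago differed from Cont by -0.63, −Salam by 0.086 and −Drago by -0.23. The fold was 15.9 for Salam over Drago and 9.66 for Salam over −Salam. Both of these set 3 arrays against 3 and do not use the Cont arrays. All 3 Drago arrays lay below both Cont arrays, which is the direction opposite to Salam. Such a position on 1 side of Cont was held by the Drago arrays in 19.8% of all probe sets and by the Salam arrays in 20.1%, and 0.362% had all Salam arrays on one side and all Drago arrays on the other side of both Cont arrays.

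bcorl1.L was lowest in Salam, and its changes were small. Its values were -0.67, -0.68 and -0.55 in Salam. They were -0.28, 0.15 and -0.057 in Drago, and 0.45, 0.32 and 0.057 in −Salam. They were 0.48, 0.47 and 0.56 in −Drago, and -0.29 and -0.16 in Cont. The 3 Salam arrays lay below all 11 others, as in 0.213% of all probe sets, and the 3 −Drago arrays above all others, as in 0.245%. Means ± SD were -0.635 ± 0.0729 for Salam, -0.0621 ± 0.213 for Drago, 0.274 ± 0.198 for −Salam, 0.504 ± 0.0503 for −Drago (n = 3 for each predator group) and -0.225 ± 0.093 for Cont (n = 2). In falling order they ran −Drago, −Salam, Drago, Cont and Salam. −Drago and −Salam were parted by only 0.027, and Salam and Cont by 0.26, between their nearest arrays. −Salam overlapped with Drago, and Drago with Cont.

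The fold of bcorl1.L against Cont was 1.33 lower in Salam, 1.12 higher in Drago, 1.41 higher in −Salam and 1.66 higher in −Drago. Continuous exposure thus lay below removal for both predators. Salam stood at -0.91 against −Salam on the log2 scale, a fold of 1.88, and all 3 Salam arrays lay below all 3 −Salam arrays. Such a split, in either direction, was seen for 10.1% of all probe sets. A narrow spread between arrays of a group favoured the choice of all 3 genes. The SD within groups was low for rhno1.S (0.333, rank 452 from the lowest) and pdap1.L (0.401, rank 836). For bcorl1.L it was the narrowest of them. The SD within groups was 0.147, the 10th lowest of 15491, where the median probe set had 0.984. Its whole range over the 14 arrays, 1.24, was also small, against a median range of 3.29. For this reason the SE depends on the method. limma, which draws each variance towards that of the other probe sets, gave an SE of 0.50 for a difference from Cont, and the probe set's own spread gave 0.134.

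rhno1.S was low in Salam and also in −Drago, whose arrays overlapped with those of Salam. Its values were -0.98, -0.96 and -0.55 in Salam, and -0.036, 0.036 and 0.19 in Drago. They were 1.39, 1.69 and 0.84 in −Salam. They were -0.76, -0.57 and -0.73 in −Drago, and 1.92 and 0.96 in Cont. The arrays formed 3 levels without overlap between them, with Salam and −Drago at the bottom, Drago in the middle, and −Salam and Cont at the top. Means ± SD were -0.827 ± 0.243 for Salam, -0.687 ± 0.101 for −Drago, 0.0633 ± 0.115 for Drago, 1.30 ± 0.433 for −Salam (n = 3 for each predator group) and 1.44 ± 0.677 for Cont (n = 2). The gap between nearest arrays was 0.65 from −Salam to Drago and 0.54 from Drago to −Drago, while −Salam overlapped with Cont and Salam with −Drago. Of all probe sets, 0.0387% (6 of 15491, rhno1.S among them) had all 6 Salam and −Drago arrays below the other 8. The 3 levels and this pairing of groups were taken from the values of rhno1.S itself, so the levels and the share are a description only.

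The fold of rhno1.S against Cont was 4.80 lower in Salam, 4.36 lower in −Drago, 2.59 lower in Drago and 1.10 lower in −Salam. The removal of the predator therefore went with opposite differences. Salam lay below −Salam by 4.38 fold, all 3 arrays below all 3, a split that 10.1% of all probe sets had in either direction. Drago lay above −Drago, at 0.0633 against -0.687, also with no overlap, as in 10.6% of all probe sets in either direction. Cont is the least certain of these levels, since its 2 arrays differed by 0.957 on the log2 scale. Without Cont replicate 1 the Salam minus Cont difference was -1.78, and without Cont replicate 2 it was -2.74. The label of the genes as marking salamander exposure goes against the −Drago arrays of rhno1.S, and bcorl1.L set −Drago apart as well as Salam.

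**Figure D2:**
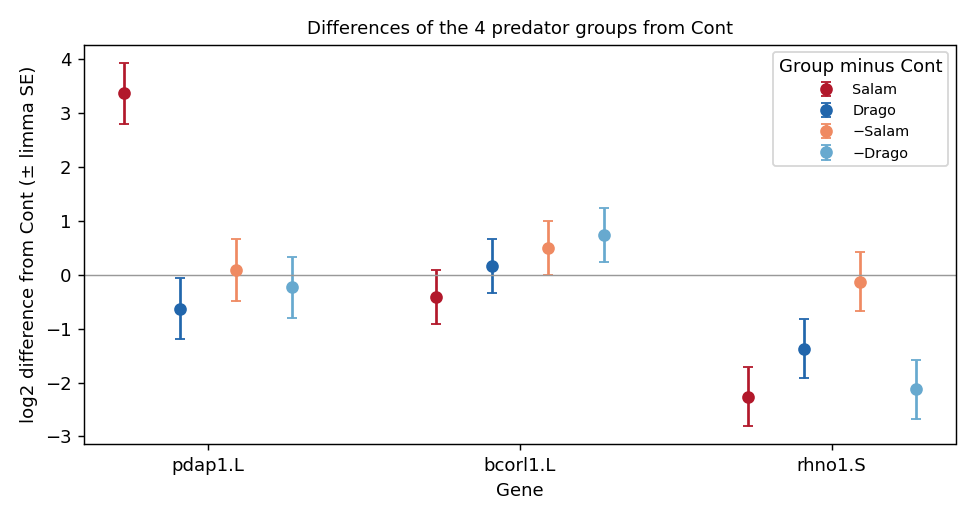
log2 difference of each predator group from Cont for pdap1.L, bcorl1.L and rhno1.S, with the limma SE as bars. Salam is 3.36 above Cont for pdap1.L, all 4 differences of bcorl1.L are under 1 in size, and rhno1.S is about 2 below Cont in both Salam and −Drago.

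Across the array, pdap1.L held the first place for the ratio of the variance between groups to that within groups (F = 48.1), rhno1.S the 4th (F = 27.7) and bcorl1.L the 5th (F = 26.8). The study's selection on this ratio took 10 probe sets. The last inside, dlgap5.S, had F = 21.2 and the first outside, sfrp5.L, had F = 20.6. In limma's F test over the 5 groups 0 of 15491 probe sets (0%) passed an adjusted p under 0.05, and 907 (5.86%) an unadjusted p under 0.05. For Salam minus Cont the counts were 0 (0%) and 775 (5%). For Salam minus the mean of the other 4 groups 1 probe set passed (0.00646%), and for Salam minus Drago 1 (0.00646%). Both times it was pdap1.L itself, so nothing is read from these calls. In the first of these comparisons 1 probe set also passed by ordinary tests, with 756 by limma (4.88%) and 711 by ordinary tests at an unadjusted p under 0.05. It took 2 without Salam replicate 1 and 0 without Salam replicate 2 or 3, and the call for Salam minus Drago was lost without any 1 array of these groups.

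The Salam arrays lay wholly above or wholly below the other 11 arrays for 73 probe sets (0.471%), 40 above and 33 below. With only 2 Salam arrays, 178 to 201 lay above and 181 to 188 below, and without Drago replicate 1 there were 52 below. pdap1.L and bcorl1.L are among them and rhno1.S is not. The distance between the Salam arrays and the nearest other array was largest for pdap1.L, at 2.68. The next was ropn1l.L at 1.28, a homologue of a sperm flagellum protein, and then came pecr.S, which encodes an enoyl-CoA reductase of the peroxisome, at 1.13. bcorl1.L, at 0.26, was 21st, and for rhno1.S the Salam arrays overlapped the others by 0.21. By size, pdap1.L had the largest difference of all probe sets between Salam and the mean of the other 4 groups, at 3.55, but not between Salam and Cont. In all, 12 probe sets (0.0775%) were over 10 fold higher in Salam than in Cont, pdap1.L being the 9th in size. Only pdap1.L and pecr.S among these 12 had all 3 Salam arrays above all others. In the other 10, an array of another group lay above the lowest Salam array.

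**Figure D3:**
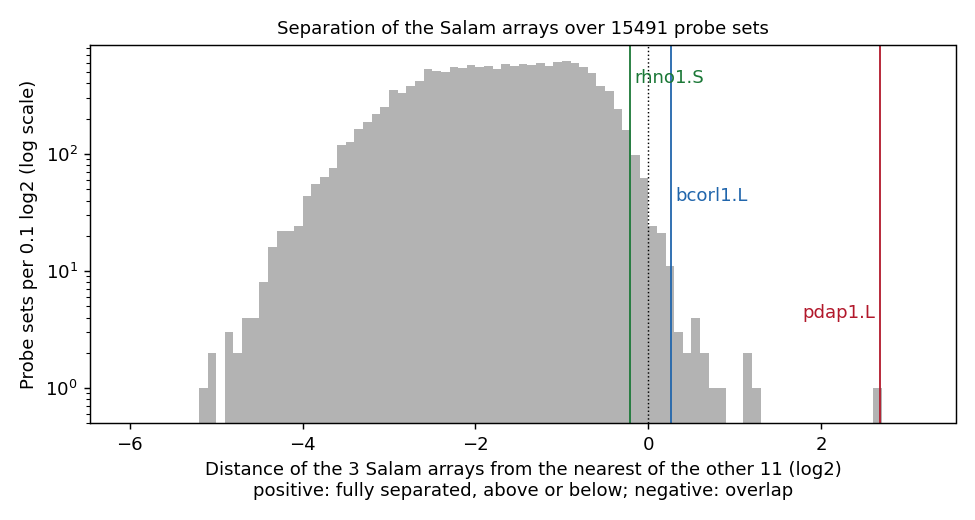
Distance of the 3 Salam arrays from the nearest of the other 11 arrays, in log2 units, for 15491 probe sets (count on a log scale). Positive values are full separation above or below, and negative values are overlap. pdap1.L lies alone at 2.68, bcorl1.L at 0.26 and rhno1.S at -0.21.

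The other 2 probe sets of pdap1 were not used in choosing these genes, and in neither did the Salam arrays stand apart from the others. The first is annotated to both pdap1.L and pdap1.S. Its values were -0.43, 1.64 and 0.46 in Salam, and 0.49, -0.57 and -0.37 in Drago. They were 1.22, 0.20 and -0.43 in −Salam, 0.60, -0.55 and 1.11 in −Drago, and -0.20 and -0.22 in Cont. One Salam array was high and the arrays of every predator group overlapped. The Salam minus Cont difference was 0.77 (SE 0.75, limma adjusted p = 0.999), with a 95% confidence interval of -0.83 to 2.37. That of Salam minus the mean of the other 4 groups was 0.47 (SE 0.54, adjusted p = 0.991).

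The second is annotated to pdap1.S alone. Its values were 0.50, -0.32 and 0.38 in Salam, and -0.51, -1.80 and -0.60 in Drago. They were 0.031, -0.031 and -0.055 in −Salam. They were 0.37, -0.031 and 1.13 in −Drago, and 0.51 and 0.18 in Cont. Here Drago and not Salam stood apart, with its 3 arrays below all 11 others, as for 0.297% of all probe sets. The Salam minus Cont difference was -0.16 (SE 0.60, limma adjusted p = 0.999), with a 95% confidence interval of -1.45 to 1.13. The Drago minus Cont difference of pdap1.S was -1.31 (SE 0.60, unadjusted p = 0.0463, limma adjusted p = 0.868), and 2.65% of all probe sets were lower in Drago at an unadjusted p under 0.05. Salam minus Drago was 1.15 (SE 0.54, unadjusted p = 0.0497, limma adjusted p = 0.87), where 2.61% were higher in Salam. In the F test over the 5 groups the adjusted p was 0.999 for the shared probe set and 0.907 for pdap1.S. Neither passed in any of the 7 comparisons. Over the 14 arrays, pdap1.L had a Pearson r of 0.31 with the shared probe set and 0.24 with pdap1.S, given as a description. Whether the 3 probe sets read 1 or several Rana pirica transcripts was not tested.

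**Figure D4:**
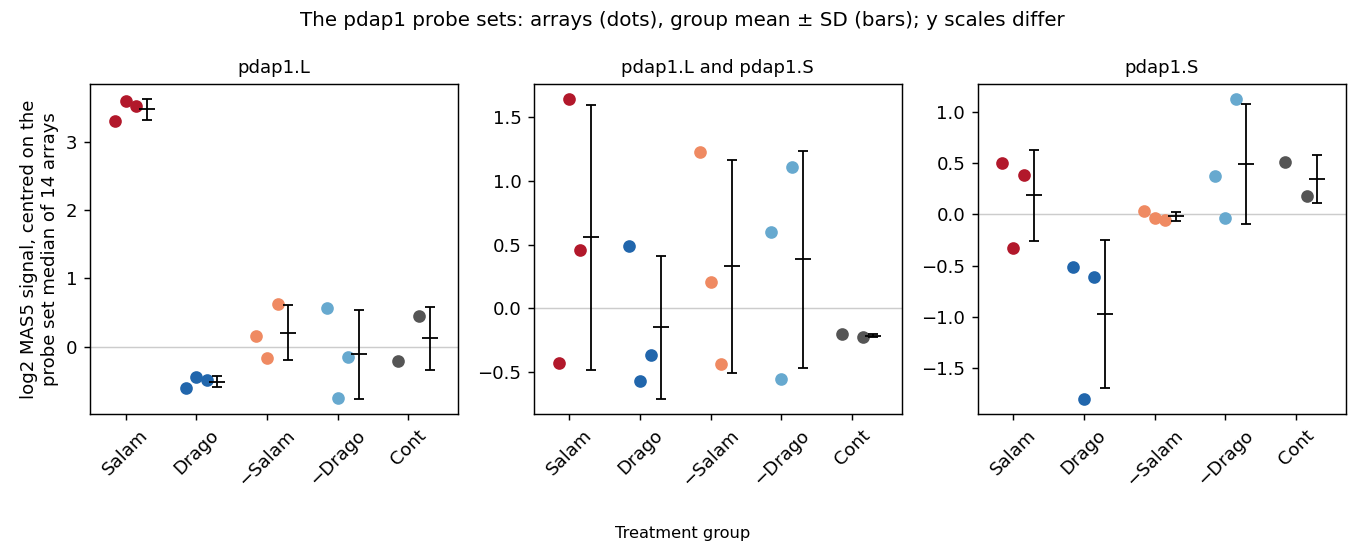
The 3 pdap1 probe sets on the 14 arrays, as log2 MAS5 signal centred on the probe set median. Dots are arrays and bars are group means ± SD (n = 3, Cont n = 2). The first panel reaches 3.60 in Salam, while the shared probe set and that of pdap1.S have Salam values between -0.43 and 1.64 that overlap with other groups.

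Among themselves the 3 genes moved differently. Over the 14 arrays, Pearson r was -0.72 between pdap1.L and bcorl1.L, -0.47 between pdap1.L and rhno1.S and 0.19 between bcorl1.L and rhno1.S. These values describe arrays that fall into treatment groups, and the Salam arrays alone carry much of the first, since pdap1.L varied little elsewhere. bcorl1.L and rhno1.S parted in −Drago, where bcorl1.L had its highest mean and rhno1.S was near its lowest, and in Cont, where rhno1.S had its highest mean and only Salam had a lower mean of bcorl1.L.

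The probe sets most like pdap1.L, by Pearson r over the 14 arrays and among those with 1 gene symbol, were pecr.S (r = 0.82), ropn1l.L (0.82), ewsr1.L (0.78), thoc1.L (0.76) and XB5776174.S (0.73). All r values share the same arrays and were the highest of many. pecr.S stood at 2.38, 1.79 and 2.16 in Salam and at most at 0.66 on the other arrays. Its mean was lowest in Cont, from arrays at -1.62 and -0.81, whereas pdap1.L was not low in Cont. ropn1l.L stood at 1.99, 1.97 and 1.88 in Salam and at most at 0.61 elsewhere. For ewsr1.L, which encodes an RNA-binding protein, and thoc1.L, a subunit of the mRNA export complex THO, single arrays of other groups reached the Salam range.

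Most like bcorl1.L were the N-myristoyltransferase gene nmt1.L (r = 0.87), the splicing factor gene bud13.L (0.81), brf2.S (0.78), which encodes a factor of RNA polymerase III, the heme oxygenase gene hmox2.S (0.77) and zfyve21.L (0.77). nmt1.L shared the small range. Its values were -0.62, -0.97 and -0.60 in Salam, against -0.30 and -0.11 in Cont, and its 3 Salam arrays lay below all others. bud13.L stood further from Cont in −Drago, where it stood at 0.73, 1.37 and 2.08, than in Salam, where it stood at -0.56, -0.65 and -0.22. In Cont it stood at -0.15 and 0.11.

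Most like rhno1.S were vps35.S (r = 0.82), nudcd1.S (0.78), mecr.S (0.77), sox2.L (0.77) and dbi.L (0.76). vps35.S, which encodes a subunit of the retromer that sorts endosomal cargo, had the same low groups. It stood at -1.19, -2.53 and -1.66 in Salam, at -1.89, -0.98 and -0.98 in −Drago, and at 0.77 and 0.97 in Cont. mecr.S, an enoyl reductase of mitochondrial fatty acid synthesis, stood at -1.82, -0.72 and -1.72 in Salam, at -1.11, -1.65 and -0.15 in −Drago, and at 1.12 and 0.55 in Cont. sox2.L, a transcription factor of neural progenitors, stood at -1.17, 0.18 and -0.97 in Salam, at 0.50, -0.28 and -0.57 in −Drago, and at 2.12 and 0.57 in Cont.

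**Figure D5:**
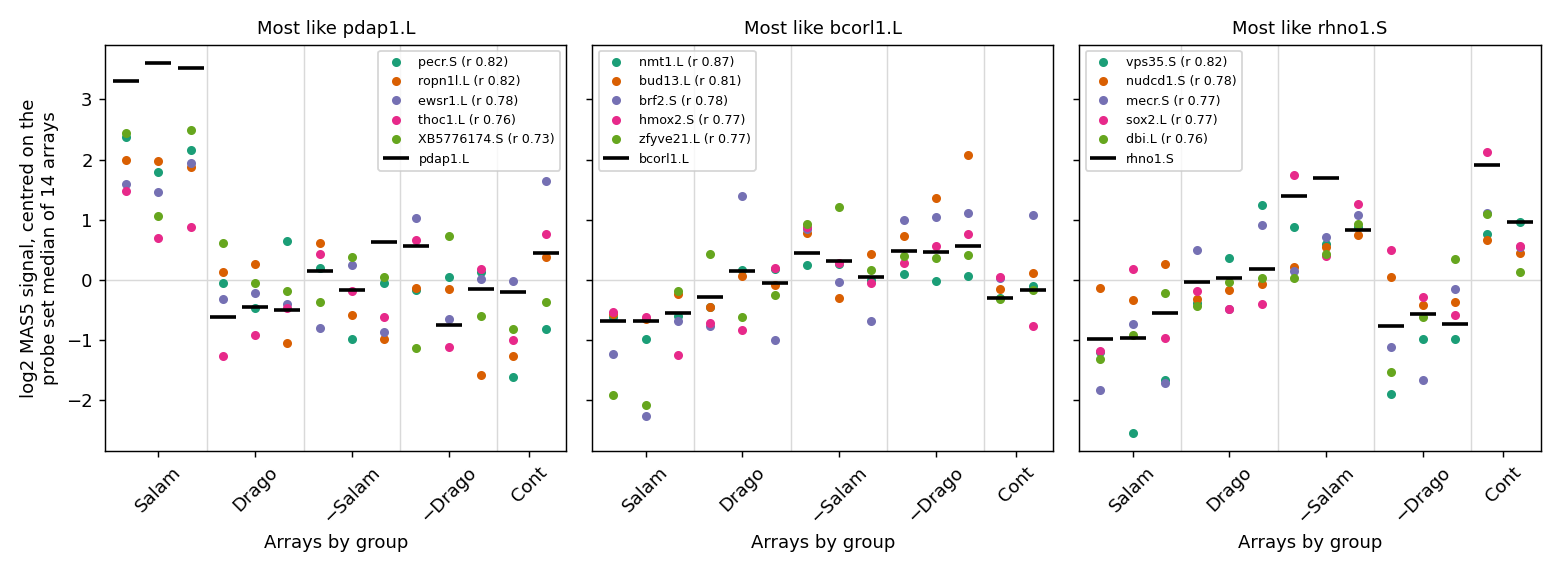
The 5 probe sets most like pdap1.L, bcorl1.L and rhno1.S by Pearson r over the 14 arrays (coloured dots), with the gene itself as black bars, as log2 MAS5 signal centred on the probe set median. Arrays run by group. The probe sets like pdap1.L are high in Salam, and vps35.S and mecr.S, like rhno1.S, are low in Salam and −Drago.

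Genes of the pathways and complexes linked to the 3 proteins, not only their binding partners, were taken as lists, without the 3 genes themselves. For PDGF signalling and casein kinase 2, 15 of 22 genes were measured by 26 probe sets. In Salam minus Cont 0 passed an adjusted p under 0.05, and at an unadjusted p under 0.05 0 were higher and 0 lower, where 2.61% of all probe sets were higher and 2.39% lower. Their median difference was -0.0024, against -0.016 over all probe sets, with 13 above and 13 below 0. The ligand pdgfa.S was read by a pair of probe sets that disagreed, at -1.15 (SE 1.08) and 0.84 (SE 0.98) for Salam minus Cont. The receptor pdgfra.L, also read by a pair, stood at 0.66 (SE 0.81) and 0.66 (SE 0.61). The probe set with the largest Salam minus Cont difference was ptpn11.S, a phosphatase downstream of receptor tyrosine kinases, at -1.61 (SE 0.79, limma adjusted p = 0.98). Its Salam arrays, at -2.38, -1.33 and -0.036, overlapped with Cont at 0.78 and -0.056. pdgfb, pdgfc, pdgfd and pdgfrb had no annotated probe set of their own.

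For the corepressor complexes of the BCOR family, 10 of 18 genes were measured, by 1 probe set each. None passed an adjusted p under 0.05 in Salam minus Cont or an unadjusted p under 0.05. Of the 10, 9 lay below Cont in Salam, with a median difference of -0.93, against -0.016 over all probe sets. Against the mean of the other 4 groups 8 of 10 were lower in value, with a median of -0.56, and 1 had an unadjusted p under 0.05, where 2.85% of all probe sets did so on the low side. In the PDGF list 1 of 26 probe sets, and in the checkpoint list below 1 of 30, also did so on the low side. In Drago 6 of 10 lay below Cont, and in −Salam and −Drago 7 each, all against the same 2 Cont arrays. ctbp1.L, the CtBP partner named above, stood at -2.04, 0.66 and -0.039 in Salam, against 1.52 and 1.60 in Cont, a difference of -2.03 (SE 1.04, limma adjusted p = 0.985). Its Drago arrays, at 0.039, -0.78 and -0.42, lay below both Cont arrays as well. Those of −Salam and of −Drago fell on both sides of Cont. In Salam minus Cont pcgf1.L differed by -1.82 (SE 1.23), kdm2b.L, which brings this Polycomb complex to CpG islands, by -1.06 (SE 1.02), and cdh1.S, E-cadherin, by -0.61 (SE 1.27). By the study's account E-cadherin is a gene that BCORL1 represses. cdh1.S is thus counted among the 10, and among the 9 below Cont, as a target and not as part of a complex. The single one of the 10 below 0.05 against the mean of the other 4 groups was usp7.S, a deubiquitinase that was named here after its values were seen. It stood at -0.62, -2.25 and -2.53 in Salam, against 0.27, 0.091 and 0.16 in Drago, and at -0.21 and -0.75 in Cont. Salam minus the mean of the other 4 groups was -1.75 (SE 0.45, unadjusted p = 0.00153, limma adjusted p = 0.822). By the platform annotation, bcor, bcl6 and ctbp2 had no probe set matched to them, although the study gave the bcorl1.L probe set the symbol bcor.

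For the RAD9-HUS1-RAD1 clamp and the ATR checkpoint, 22 of 28 genes were measured by 30 probe sets. In Salam minus Cont 0 passed an adjusted p under 0.05, and at an unadjusted p under 0.05 0 were higher and 2 lower, where 2.39% of all probe sets were lower. The median difference was 0.088, against -0.016 over all probe sets, with 16 above and 14 below 0. One of the 2 was hus1.L, a ring subunit of the clamp that RHNO1 binds, which also had the largest difference of the list. It stood at -0.48, -0.18 and -1.30 in Salam, against 0.68 and 1.95 in Cont, with no overlap (20.1% of all probe sets), a difference of -1.97 (SE 0.70, unadjusted p = 0.0135, limma adjusted p = 0.862). Unlike those of rhno1.S, the −Drago arrays of hus1.L (1.44, 0.26 and 0.16) all lay above its Salam arrays. Its −Salam arrays (-0.18, -0.35 and -0.16) all lay below both Cont arrays, which those of rhno1.S did not. The other was a probe set of rfc3.L, a subunit of the clamp loader family, at -1.64 (SE 0.75, limma adjusted p = 0.98). In Drago the same probe set stood at -1.18, -1.01 and -1.06, against 1.66 and 1.80 in Cont. For Drago minus Cont the lowest limma adjusted p of the list was 0.601. Another probe set of rfc3.L stood at -1.53, 0.053 and -0.053 in Salam, below Cont at 0.41 and 0.22. Its Drago arrays, at 1.18, -0.20 and -1.71, fell on both sides of Cont. The other ring subunits had smaller but imprecise estimates in Salam minus Cont. They were -0.31 (SE 1.11) for rad9a.L, and -0.16 (SE 0.88) and 0.42 (SE 0.60) for the pair of rad1.L probe sets. rad17.L, the loader, differed by 0.082 (SE 0.82), topbp1.L by -0.012 (SE 0.83), atr.L by -1.15 (SE 1.01), atrip.S by 0.20 (SE 0.79) and the kinase chek1.S by 0.59 (SE 1.27) and -0.43 (SE 0.89). foxm1 had no matched probe set.

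The added poly-A control transcript Dap, which checks labelling, was high on 2 of 3 Salam, 2 of 3 Drago, 1 of 3 −Salam, 0 of 3 −Drago and 1 of 2 Cont arrays. By number, these were replicate 1 of Salam, Drago, −Salam and Cont and replicate 2 of Salam and Drago. No replicate 3 was high. Within Salam, pdap1.L averaged 3.46 on the arrays with high Dap and 3.52 on the one without, and rhno1.S -0.97 and -0.55. In Cont, rhno1.S stood at 1.92 on the array with high Dap and 0.96 on the other, and pdap1.L at -0.21 and 0.44. High minus low Dap for rhno1.S was -0.19 in Drago and 0.13 in −Salam. With a term for Dap in the fit, Salam minus Cont was 3.39 for pdap1.L, -0.41 for bcorl1.L and -2.27 for rhno1.S, close to the values without it. Markers of muscle (10 probe sets), epidermis (4), notochord and cartilage (7), erythrocytes (4), neural tissue (9) and immune cells (6) included 0 that parted the Salam arrays from all 11 others, as 0.471% of all probe sets did. At an unadjusted p under 0.05 for Salam minus Cont there were 1 of the 10 muscle and 2 of the 9 neural probe sets and 0 in the other lists, where 5% of all probe sets passed. The neural list includes sox2.L, named above as like rhno1.S, with a Salam minus Cont difference of -2.00 (SE 0.68). The part of these markers in the values of the 3 genes was not tested. In each of these lists the mean of the Salam arrays overlapped with that of other groups. For muscle it ran from -0.40 to 0.051 in Salam, against -0.16 to -0.15 in Cont. For notochord and cartilage it ran from -0.11 to 0.21 in Salam, above Cont at -0.33 to -0.27. There the Drago and −Drago arrays lay above Cont as well, and the overlap of Salam was with predator groups only.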

How the data were processed

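Tail RNA of Rana pirica was hybridized to Affymetrix Xenopus laevis genome arrays. The authors scanned the arrays into GCOS 1.2, computed MAS5 signals in GeneSpring 11.5 and subtracted each probe set's median. The deposited values are log2 units, a base that follows from the folds the study derived from them. Array medians lay between -0.00486 and 0.00662. Without signal levels, no filter on dim probe sets was possible, and the number of arrays limits the precision.

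Groups were taken from the sample titles. A model with a mean per group was fitted to 15491 probe sets by limma 3.58.1 (R 4.3.3) over 14 arrays (9 residual and 5.53 prior degrees of freedom), leaving out 120 added control probe sets. The F test and 7 comparisons were each adjusted by Benjamini-Hochberg. Gene names come from GEO's platform annotation, which gives 1 symbol for 9304 of these, several for 195 and none for 5992. The genes named are the 3 genes and their other probe sets, the 5 most correlated probe sets of each, the core genes of each list, and each list's largest Salam minus Cont difference. Others, among them usp7.S, rfc3.L, dlgap5.S and sfrp5.L, were chosen after their values were seen. Genes and lists were chosen with earlier results of these data known. The pipeline was tested on simulated data. Alternatives were quantile normalization, array centring, ratios of linear means, a Dap term, the replicate number as a block, ordinary tests, only the 2 groups compared, the control probe sets kept, and leaving out each array. Probe and transcript sequences and quantitative PCR were not analysed here.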

Additional observations from a re-analysis of the deposited data

Results flagged for a closer look

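For pdap1.L, Salam and Drago moved in opposite directions from Cont on every array. Salam was 3.36 above Cont and Drago was at -0.63, so that the effects differed by 3.99 on the log2 scale. For rhno1.S, continuous exposure and removal differed in opposite directions for the 2 predators. Salam minus −Salam was -2.13 and Drago minus −Drago was 0.75, a difference of -2.88, and the same held array by array for 0.607% of all probe sets, with either predator on the higher side. These differences were not tested, because the probe sets had been chosen on the same arrays.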

How the results depend on the processing

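Under quantile normalization, array centring, ratios of linear means and a Dap term, Salam minus Cont ran from 3.33 to 3.39 for pdap1.L, -0.42 to -0.41 for bcorl1.L and -2.33 to -2.26 for rhno1.S. With 1 array left out, Salam minus Cont ran from -2.74 to -1.78 for rhno1.S, from 3.03 to 3.68 for pdap1.L and from -0.48 to -0.34 for bcorl1.L. The probe sets called for Salam minus the mean of the other 4 groups ran from 0 to 2: 2 without Salam replicate 1, and 0 without Salam replicate 2 or 3. For Salam minus Drago the 1 call, pdap1.L, was lost without any 1 Salam or Drago array. Each of these fits has fewer arrays. The probe sets with the Salam arrays above all others numbered 46 to 201 with 1 array left out, and those below 39 to 188. The highest counts came from only 2 Salam arrays. Quantile normalization gave 43 above and 36 below, and array centring 45 and 31. Without Salam replicate 3 the remaining Salam arrays of rhno1.S lay 0.20 below all others. With the replicate number as a block, Salam minus Cont was 3.30 for pdap1.L, -0.40 for bcorl1.L and -2.25 for rhno1.S, the F test called 0 and Salam minus the mean of the other 4 groups 1. For Salam minus Drago the block left 0. Deviations of arrays with the same number did not correlate (correlations of -0.019 to 0.016 over 26 pairs). Dap was nevertheless high on replicate 1 of every group but −Drago and on no replicate 3. Whether arrays of the same number were handled together was not tested. The other pdap1 probe sets and the pathway and complex lists had 0 calls under every alternative but the ratio of linear means, which gives no test. The 2 Cont arrays limit every difference from Cont.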
